A study of Mus musculus with 24 samples.

Results

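The change of the transcriptional response to interferon gamma (IFN-gamma) between 1 h and 3 h of treatment was measured in NIH-3T3 cells, an established mouse embryonic fibroblast line. The quantity of interest is a difference of differences. The log2 difference between IFN-gamma and mock cells at 3 h was set against the same difference at 1 h, for every probe set that exceeded log2 4 on 3 or more of the 24 arrays of the series. Of the 24 arrays, 14 belong to this comparison, and 19305 of 45101 probe sets, covering 9421 named genes, passed the filter. The 1 h groups, mock and IFN-gamma at 100 U/ml, had 4 arrays each, and the cells of both carried 200 uM 4-thiouridine (4sU), a nucleoside built into new RNA, from 0 to 60 min. The 3 h groups, mock and IFN-gamma at 100 U/ml, had 3 arrays each, with 500 uM 4sU from 150 to 180 min. Each interferon group was thus compared with mock cells of the same time, 4sU dose and labelling window. Between the 1 h and 3 h groups the dose and window of 4sU changed along with the time, and their parts cannot be told apart. The RNA was total cellular RNA, hybridised to one-colour Affymetrix arrays, and the values are GCRMA signals on the log2 scale.

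IFN-gamma is a cytokine made mainly by T cells and natural killer cells. It binds a receptor of IFNGR1 and IFNGR2 chains, which activates the kinases JAK1 and JAK2. Signalling then reaches gamma-activated sites (GAS) in DNA and induces a first set of genes, among them IRF1, itself a transcription factor that binds interferon-stimulated response elements (ISRE) in the promoters of further genes. SOCS proteins, also encoded by early targets, inhibit the receptor kinases.

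The promoters of a few genes show the letters behind these terms. They are given for Irf1 and Socs3, which were high at 1 h, for Igtp, which was raised at 1 h and higher at 3 h, and for Gbp2, which was raised at 3 h. A GAS was searched as TTCNNNGAA, which reads the same on both strands, and an ISRE as GAAA, any 2 bases, GAAA on either strand (TTTC, any 2 bases, TTTC when read from the other one). The windows are of 300 bases, 250 before and 50 after the start of the gene, from RefSeq on GRCm38.p6, written 5′ to 3′ in the direction of the gene. Capitals mark the matches. The Irf1 window is chr11:53769764-53770063 on the plus strand, with a GAS match 90 bases before the start. The Socs3 window is chr11:117969317-117969616 on the minus strand, with a GAS match 154 bases before the start. The Igtp window is chr11:58199306-58199605 on the plus strand, with a GAS match at 45 bases and an ISRE match at 34 bases before the start. The Gbp2 window is chr3:142620413-142620712 on the plus strand, with an ISRE match 59 bases before the start. Each window covers the start of the first exon and the sequence before it.
Irf1: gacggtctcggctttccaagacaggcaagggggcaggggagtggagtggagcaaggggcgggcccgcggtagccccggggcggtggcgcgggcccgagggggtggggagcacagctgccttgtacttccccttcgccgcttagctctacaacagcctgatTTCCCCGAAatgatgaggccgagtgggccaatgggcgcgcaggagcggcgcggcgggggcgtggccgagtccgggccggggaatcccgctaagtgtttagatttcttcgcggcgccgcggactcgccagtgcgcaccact
Socs3: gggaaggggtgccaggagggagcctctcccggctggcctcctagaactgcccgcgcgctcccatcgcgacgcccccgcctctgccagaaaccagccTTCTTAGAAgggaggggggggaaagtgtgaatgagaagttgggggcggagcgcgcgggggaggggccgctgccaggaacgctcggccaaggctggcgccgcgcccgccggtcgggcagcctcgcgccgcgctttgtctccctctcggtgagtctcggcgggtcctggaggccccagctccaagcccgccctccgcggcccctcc
Igtp: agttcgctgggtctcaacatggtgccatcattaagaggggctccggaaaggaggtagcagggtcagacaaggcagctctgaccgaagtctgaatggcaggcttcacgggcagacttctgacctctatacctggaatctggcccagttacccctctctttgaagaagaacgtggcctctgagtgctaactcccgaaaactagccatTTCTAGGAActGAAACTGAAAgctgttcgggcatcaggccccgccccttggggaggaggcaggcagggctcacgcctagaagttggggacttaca
Gbp2: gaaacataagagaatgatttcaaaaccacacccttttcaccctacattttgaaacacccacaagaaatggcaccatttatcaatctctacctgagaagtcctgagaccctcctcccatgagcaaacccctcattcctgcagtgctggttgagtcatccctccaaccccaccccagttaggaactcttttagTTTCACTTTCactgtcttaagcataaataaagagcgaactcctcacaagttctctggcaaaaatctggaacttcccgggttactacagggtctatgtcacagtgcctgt

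Over all 32851 promoters of the table, 8.30% held a GAS and 3.44% an ISRE match. Per gene, counting a gene when any of its windows matched, 7.86% of 7724 named genes with a window held a GAS and 3.61% an ISRE match. A match is a description of letters and not of binding.

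Fibroblast identity was visible on all groups. The 10 fibroblast markers examined were above log2 4 (median level 12.4, Vim at 13.8), while 1 of 8 leukocyte markers was (Cd14 at 5.41) and none of 4 epithelial and 4 endothelial markers. In replicate 2 of the 1 h mock and IFN-gamma groups the beta-actin signal at the 3′ end was above that at the 5′ end by 2.99 and 3.43, against 0.78 to 1.37 on the other 12 arrays. The median SD of a probe set was 0.40 in both 1 h groups and 0.13 and 0.12 in mock and IFN-gamma cells at 3 h. The fit uses a common spread per probe set, so standard errors at 3 h carry the wider spread of 1 h, and those at 1 h the narrower spread of 3 h. The labels give no separate cultures behind the replicates, so p-values reflect the array-to-array spread alone, and this may be technical.

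The response to IFN-gamma was larger at 3 h than at 1 h for most genes in which the 2 differed. Of the 19305 probe sets, 160 (0.829%) passed in the time comparison (limma, Benjamini-Hochberg adjusted p under 0.05), 152 of them (0.787%) with a higher and 8 (0.0414%) with a lower response at 3 h. A fit that holds the replicate number as a block, here called the block, gave 527 (2.73%), of which 427 were higher (2.21%) and 100 lower (0.518%), and the 160 were all among them with the same sign. On the 1 probe set chosen for each gene, 89 named genes had a higher and 3 a lower response at 3 h. Of these 92 genes 36 had several probe sets, whose differences had the same sign in every case. IFN-gamma against mock passed for 95 probe sets (0.492%) at 1 h, 84 higher (0.435%) and 11 lower (0.057%), and for 385 (1.99%) at 3 h, 363 higher (1.88%) and 22 lower (0.114%). With the block 428 passed at 1 h (2.22%), 255 higher (1.32%) and 173 lower (0.896%), and 1029 at 3 h (5.33%), 746 higher (3.86%) and 283 lower (1.47%).

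Genes were placed in time classes by these 3 calls. A late rise is not called at 1 h, called higher at 3 h, and called in the time comparison. It held 80 genes, the most of the classes with resolved timing. A growing rise, called at both times and larger at 3 h, was found for 9 genes. An early and kept rise, called at both times with the time comparison not called, was found for 21 genes. Above log2 4 on 3 or more of the 7 mock arrays were 43 of the late, 4 of the growing and 17 of the early and kept genes. The others did not meet the filter on these mock arrays alone, so the counts of these classes are given as a description. A fading rise, called at both times and smaller at 3 h, was found for 1 gene, and a transient rise, called at 1 h and absent from the calls at 3 h with the time comparison called, for none of the named genes (6 of the 9421 had this pattern at an unadjusted p under 0.05). A further 97 genes were called higher at 3 h and 6 at 1 h with the time comparison not called, so their timing is not resolved. With the block, 183 genes were in the late class (68 of the 80 among them), 48 in the growing class, 44 early and kept, 5 fading and 6 transient, and 1 gene went from a rise at 1 h to a fall at 3 h.

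**Figure D1:**
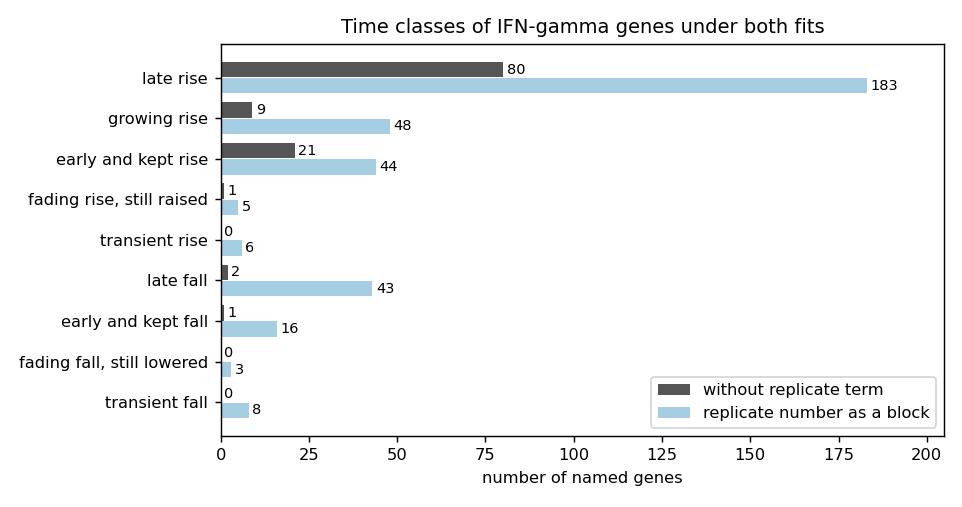
Number of named genes in each time class of the IFN-gamma response, in the fit without a block (dark bars) and in the fit that holds the replicate number as one (light bars). Of these classes, which leave out genes of unresolved timing, late rises were most frequent under both fits (80 and 183 genes), and transient rises were named only with the block (6 genes).

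**Figure D2:**
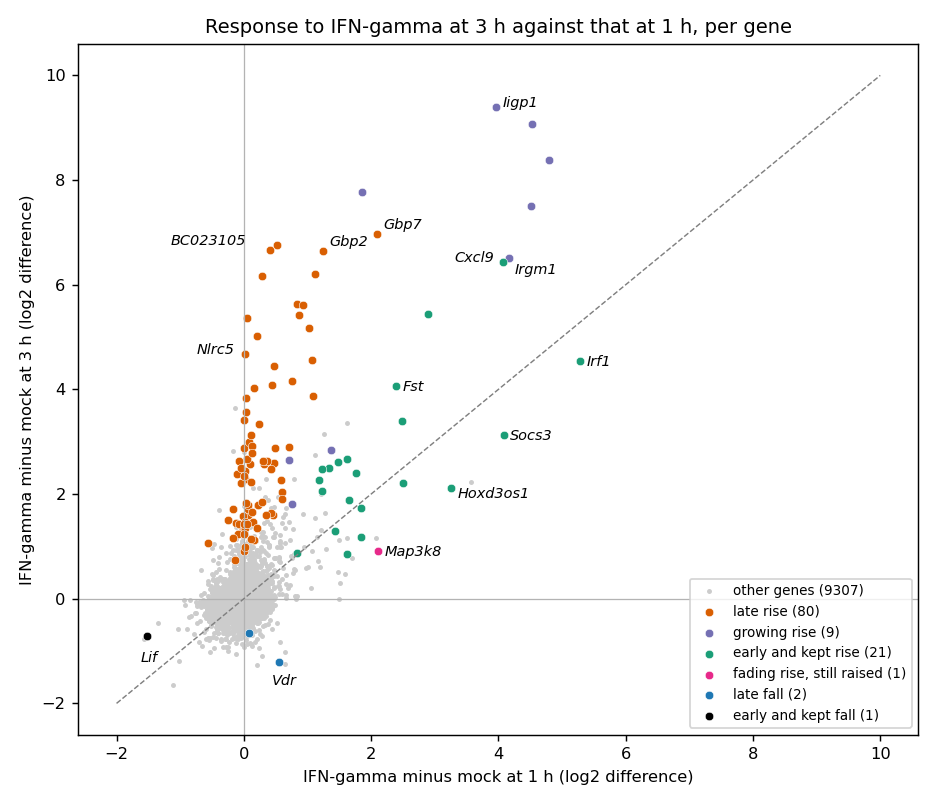
Difference between IFN-gamma and mock cells at 3 h (vertical, log2) against that at 1 h (horizontal, log2), a point per named gene, coloured by time class; the dashed line marks equal responses. Late rises lie along the vertical axis, growing rises above the line at the right, and Irf1, Socs3, Hoxd3os1 and Map3k8 below the line.

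Irf1, the transcription factor induced first in this pathway, was already high at 1 h. Its values were 5.82, 6.52, 5.50 and 6.01 in mock and 11.33, 10.81, 11.10 and 11.74 in IFN-gamma cells at 1 h. At 3 h they were 6.71, 6.69 and 6.71 in mock and 11.11, 11.26 and 11.37 in IFN-gamma cells. Treated and mock arrays were far apart at both times. The treated arrays of 1 h and 3 h overlapped, while each mock array of 3 h was above every mock array of 1 h. Irf1 was 38.8-fold higher than in mock cells at 1 h (5.28 ± 0.19 SE) and 23.3-fold higher at 3 h (4.54 ± 0.22). The response changed by -0.74 ± 0.29 (95% confidence interval -1.35 to -0.12, limma adjusted p = 0.951). Without replicate 2 of the 1 h groups the change was -1.07 (limma adjusted p = 0.0402).

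Socs3, which encodes an inhibitor of cytokine receptor signalling, read higher in treated cells at 1 h than at 3 h. The treated arrays read 12.59, 12.92, 12.67 and 12.87 at 1 h and 11.71, 11.52 and 11.62 at 3 h, all 3 h values being below all 1 h values. Mock arrays read 8.44, 9.0, 8.80 and 8.48 at 1 h and 8.55, 8.58 and 8.31 at 3 h. The increase over mock cells was 16.96-fold at 1 h and 8.79-fold at 3 h, a change of the response of -0.95 ± 0.23. It did not pass in limma without the block (adjusted p = 0.0637) and passed with it (adjusted p = 0.00713). The other 2 probe sets of Socs3 changed by -0.56 and -1.36. Cish, another member of the SOCS family, read 5.47, 5.10, 5.33 and 4.99 in treated cells at 1 h and 3.55, 3.87 and 4.02 at 3 h. Its response was 1.83 ± 0.22 at 1 h and 1.19 ± 0.26 at 3 h, and the change of -0.65 ± 0.34 did not pass (limma adjusted p = 1). Values of Cish in mock cells were lower at 3 h (2.57 to 2.72) than at 1 h (2.97 to 4.17). Socs1, the inhibitor of JAK kinases most closely tied to IFN-gamma, behaved differently between arrays of 1 h. It read 5.23, 2.26, 2.65 and 6.16 in treated cells at 1 h, 2 of them near the mock values of 2.24 to 2.66, and 5.33, 5.53 and 6.11 at 3 h. Its rise passed at 3 h (at least 3.16-fold, limma adjusted p = 0.00662) and not at 1 h (adjusted p = 0.897), and the time comparison did not pass (1.74 ± 0.91, adjusted p = 1). Usp18, whose product inhibits signalling at the type I interferon receptor, was below log2 4 on the mock and IFN-gamma arrays of 1 h and rose late, to 6.91, 6.97 and 6.99 (at least 7.76-fold, time comparison 3.80 ± 0.47, limma adjusted p = 3.93e-05).

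Irf9, a transcription factor of interferon signalling, was raised 5.62-fold at 1 h and 10.6-fold at 3 h. Treated arrays read 6.64, 6.58, 6.29 and 7.04 at 1 h and 8.07, 7.88 and 7.91 at 3 h. The change of 0.91 ± 0.38 passed only with the block (limma adjusted p = 0.0294, against 1 without). Stat2, which acts together with Irf9, was a late rise: its treated arrays read 4.96, 2.94, 4.17 and 4.30 at 1 h and 8.10, 8.32 and 7.69 at 3 h, where mock arrays read 3.88, 4.42 and 4.16. The rise at 3 h was 14.7-fold, and the time comparison gave 2.78 ± 0.61 (limma adjusted p = 0.0279). This call was lost with no filter, with the control without 4sU (adjusted p up to 0.0809) and without any of 8 of the 14 arrays (up to 0.107): mock replicates 1, 3 and 4 and IFN-gamma replicate 3 of 1 h, and mock replicates 1 and 3 and IFN-gamma replicates 1 and 2 of 3 h. A second probe set of Stat2, also a late rise, changed by 3.67 ± 0.47 (limma adjusted p = 6.38e-05). Stat3 rose 2.56-fold at 3 h (limma adjusted p = 0.000261), and its change of 0.91 ± 0.27 passed with the block (adjusted p = 0.000659) but not without it (0.252). Its probe sets disagreed, since another probe set of Stat3 changed by -1.10. Of the 12 receptor chains, kinases and STATs measured, Stat2 was the only call in the time comparison, and Ifngr1, Ifngr2, Jak1 and Jak2 were called at neither time.

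The other early and kept genes included Fst, Tnfaip2 and Cblb. Fst encodes follistatin, which binds and neutralises activin. It read 9.43, 9.93, 9.78 and 9.65 with IFN-gamma at 1 h and 10.18, 10 and 10.30 at 3 h, against mock values of 6.57 to 7.75 and of 6.04 to 6.14. Its rise was 5.27-fold at 1 h and 16.7-fold at 3 h, and the change of 1.67 ± 0.40 passed with the block (limma adjusted p = 6.15e-05) and not without it (0.0581). Tnfaip2, a gene named for its induction by tumour necrosis factor, was 3.41-fold higher at 1 h and 5.32-fold higher at 3 h (change 0.64 ± 0.40, limma adjusted p = 1). Cblb, which encodes an E3 ubiquitin ligase, was raised by 2.50 ± 0.29 at 1 h and changed by -0.29 ± 0.44, but another probe set of it changed by 1.63.

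Chemokine genes for T cell attraction rose early and went on rising. Cxcl10 read 9.04, 9.25, 8.61 and 9.59 in treated cells at 1 h and 11.83, 11.78 and 11.78 at 3 h. Mock arrays read 4.39, 5.45, 4.37 and 4.24 at 1 h and 4.13, 4.36 and 4.36 at 3 h. The groups did not overlap, and the rise went from 22.8-fold to 182.6-fold (change 3.00 ± 0.53, limma adjusted p = 0.00348). Cxcl9, whose product binds the same receptor, read 5.87, 8.08, 5.41 and 6.67 at 1 h and 8.85, 9.02 and 8.83 at 3 h, with all mock arrays at or below 2.60. It was at least 5.69-fold higher at 1 h and at least 29.9-fold at 3 h. Its change of 2.37 ± 0.64 passed with the block (limma adjusted p = 0.0086) and not without it (0.127). Ccl11, which encodes the eosinophil chemokine eotaxin, was a growing rise with low values, 3.64 to 3.91 in treated cells at 1 h and 5.67, 5.75 and 5.76 at 3 h (change 1.95 ± 0.20, limma adjusted p = 3.16e-06). Its treated values at 1 h lay below log2 4, so its call at 1 h is between values at background.

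The p47 GTPases (IRG family), which act on the vacuoles of intracellular pathogens, rose from background to high levels at 3 h. All 6 members measured rose in the time comparison, against 0.787% of all probe sets. Only 1 of the 6 was above log2 4 on 3 or more of the 7 mock arrays, so the others entered the test through the interferon arrays and their count is given as a description. Their median change was 4.69, beside -0.0045 over all named genes. Igtp read 7.74, 7.33, 7.04 and 8.09 in treated cells at 1 h and 11.94, 12.06 and 11.92 at 3 h, where mock arrays read between 2.64 and 3.69. It was at least 11.7-fold higher at 1 h and at least 251-fold at 3 h (change 4.55 ± 0.47, limma adjusted p = 3.04e-06). Iigp1 went from 6.92, 7.96, 5.88 and 7.13 to 12.25, 12.40 and 12.31 (change 5.44 ± 0.69, limma adjusted p = 5.37e-05). Treated arrays of 3 h were above all treated arrays of 1 h for each of the 6 genes. Ifi47, also of this family, changed by 5.92 ± 0.53, from treated values of 4.46 to 6.32 at 1 h to 11, 11.14 and 11.01. Irgm1, which regulates the other IRG proteins, was present in mock cells (5.25 to 5.61) and was raised 17.9-fold at 1 h and 90.8-fold at 3 h (change 2.34 ± 0.36, limma adjusted p = 0.000577). Irgm2 changed by 3.59 ± 0.40. Gm4951 was not called at 1 h (0.21 ± 0.13) and read 8.14, 8.14 and 8.03 at 3 h.

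Guanylate-binding proteins, the p65 GTPases that coat and lyse pathogen vacuoles, were late. All 6 measured rose at 3 h and in the time comparison and none passed at 1 h in limma (0.435% of all probe sets rose there), although 3 did so with the block and 4 at an unadjusted p under 0.05. The median change of the 6 was 4.98, beside -0.0045 over all named genes. As for the p47 family, 1 of the 6 was above log2 4 on 3 or more mock arrays. That was Gbp2, which read 6.53, 7.79, 6.82 and 6.98 in mock and 7.98, 8.73, 7.70 and 8.65 in treated cells at 1 h, where the groups overlapped. At 3 h mock arrays read 6.54, 6.53 and 6.21 and treated arrays 13.16, 13.10 and 12.96. The rise was 2.36-fold at 1 h (limma adjusted p = 0.457, or 0.0013 with the block) and 100.0-fold at 3 h (change 5.41 ± 0.59, limma adjusted p = 6.21e-06). Gbp6 read 4.51, 4.41, 4.28 and 5.16 at 1 h and 10.37, 10.46 and 10.33 at 3 h in treated cells (at least 83.6-fold at 3 h, change 6.24 ± 0.36). Gbp7 was the member closest to passing at 1 h, at 2.10 ± 0.50 (limma adjusted p = 0.0823, or 0.00023 with the block), and Gbp3 stood at 1.12 ± 0.41. Gbp2b and Gbp8, named after their values were seen, were below log2 4 on every 1 h array and reached 4.46 to 5.46 and 4.10 to 4.65 in treated cells at 3 h. Gbp8 no longer passed when values below log2 4 were set to 4 (adjusted p = 0.803).

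**Figure D3:**
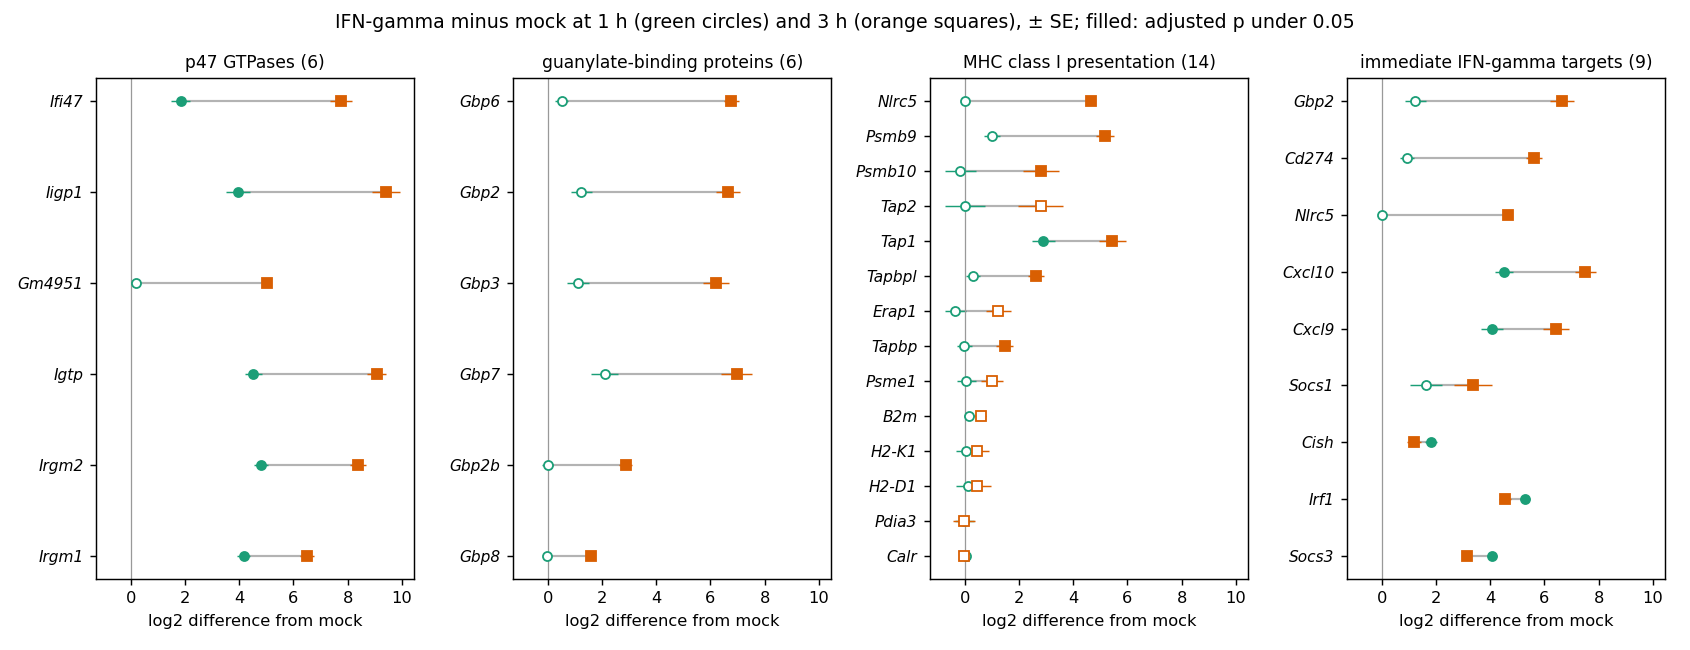
Log2 difference between IFN-gamma and mock cells at 1 h (circles) and 3 h (squares) with its standard error, for the measured members of 4 gene lists; filled symbols passed at adjusted p under 0.05. In the p47 GTPases 5 of 6 circles are filled, in the guanylate-binding proteins none, while all squares of both lists are filled; Irf1, Socs3 and Cish are the targets whose squares lie left of the circles.

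BC023105 was at background until 1 h and far above it at 3 h. It read 2.77, 3.12, 2.81 and 2.59 in treated cells at 1 h, 9.09, 9.03 and 9.07 at 3 h, and between 2.33 and 2.51 on all mock arrays. It was at least 33.4-fold higher at 3 h (change 6.25 ± 0.22, limma adjusted p = 8.6e-14). BC023105 thus entered the test through the interferon arrays, and its call is given as a description. Apol6, of the apolipoprotein L family, read 4.12, 2.56, 2.65 and 4.07 at 1 h and 8.09, 8.10 and 8.11 at 3 h (change 4.78 ± 0.42). Cd274, which encodes the inhibitory ligand PD-L1, read 3.13, 4.03, 2.88 and 3.72 at 1 h and 7.99, 8.06 and 8.40 at 3 h, with mock arrays between 2.42 and 2.55. It was at least 17.7-fold higher at 3 h (change 4.69 ± 0.40, limma adjusted p = 1.73e-07), and at 1 h it passed only with the block (0.93 ± 0.26, adjusted p = 0.0271). Cd274 also entered the test through the interferon arrays, so its calls are a description.

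Some genes of antigen presentation by MHC class I rose after 1 h. Of 14 genes measured, 11 of them above log2 4 on 3 or more mock arrays, 3 rose in the time comparison (Nlrc5, Psmb9 and Tapbpl), or 9 with the block, beside 0.787% and 2.21% of all probe sets. At 3 h 6 rose, or 12 with the block, beside 1.88% and 3.86%. The median change was 1.54. At 1 h Tap1 alone passed without the block, and with it Psmb9 passed too (1.02, limma adjusted p = 0.00924). Nlrc5, which encodes the transactivator of MHC class I genes, was between 2.35 and 2.41 on all 8 arrays of 1 h and read 7.28, 7.07 and 6.78 with IFN-gamma at 3 h, where mock arrays read 2.37, 2.39 and 2.35. It was at least 8.26-fold higher at 3 h (change 4.67 ± 0.17, limma adjusted p = 1.37e-13). As Nlrc5 was below log2 4 on every mock array, it entered the test through the interferon arrays, and its call is a description. Tap1, a subunit of the peptide transporter, read 5.93, 4.06, 5.46 and 6.39 at 1 h and 8.70, 8.65 and 8.86 at 3 h in treated cells, and 2.03 to 3.74 in mock cells. Its change of 2.53 ± 0.66 passed with the block (limma adjusted p = 0.000264) and not without it (0.0969). Psmb9, an immunoproteasome subunit that lies beside Tap1 in the MHC locus, read 4.76, 3.42, 4.06 and 5.27 at 1 h and 8.77, 8.82 and 9.12 at 3 h in treated cells (change 4.16 ± 0.46, limma adjusted p = 7.78e-06). Psmb10, another such subunit, rose 7.10-fold at 3 h (limma adjusted p = 0.0217). Its change of 3.00 ± 0.87 did not pass without the block (adjusted p = 0.203) and passed with it (1.84e-06). Replicate 2 of the 1 h groups was at 4.22 in mock and 3.52 in treated cells, and without those arrays the change passed (2.82, adjusted p = 7.41e-05). Tap2, the other transporter subunit, read 9.09, 9.08 and 8.91 in treated and 6.18, 6.13 and 6.35 in mock cells at 3 h, and 6.19, 3.72, 5.03 and 6.76 against 6.23, 3.61, 5.06 and 6.77 at 1 h. Array by array the 1 h values of both groups were close, and its change of 2.80 ± 1.11 passed with the block alone (limma adjusted p = 5.01e-06, against 0.916). Tapbp and Tapbpl, the peptide editors tapasin and its relative, were named after their values were seen. Tapbpl rose in the time comparison (2.31 ± 0.38, limma adjusted p = 0.00153), and the difference of 1.49 ± 0.42 for Tapbp passed with the block (adjusted p = 3.4e-05) and not without it (0.158). B2m, the invariant light chain, stood at 11.41 to 12.04 at 1 h and 12.12 to 12.29 at 3 h in treated cells, and its change of 0.44 ± 0.27 did not pass (limma adjusted p = 1).

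Antiviral effectors, best known as targets of type I interferon, were also late. Of 37 measured, 20 rose in the time comparison and none fell, against 0.787% of probe sets (26 rose with the block), 26 rose at 3 h and 1, Samhd1, at 1 h. With the block 28 rose at 3 h and 4 at 1 h, beside 3.86% and 1.32% of all probe sets. The median change was 1.57, and 21 of the 37 were above log2 4 on 3 or more mock arrays. Oasl2, of the oligoadenylate synthetase family, read 2.48, 2.93, 2.88 and 2.90 at 1 h and 9.26, 9.23 and 8.96 at 3 h in treated cells, and no mock array exceeded 3.15 (at least 35.5-fold at 3 h, change 5.88 ± 0.56). Oasl2 too entered the test through the interferon arrays, so its call is a description. Parp14, an ADP-ribosyltransferase, read 2.74 to 2.83 at 1 h and 8.5, 8.49 and 8.40 at 3 h (change 5.31 ± 0.42, another probe set 1.24). Rtp4 varied between the 1 h arrays, with replicate 2 the highest in mock (6.56) and treated cells (7.88), and changed by 4.56 ± 0.91 (limma adjusted p = 0.0115). The Rtp4 call was lost in a fit of the 14 arrays alone (limma adjusted p = 0.0818). A second probe set of Rtp4, also a late rise, changed by 2.42 ± 0.32 (limma adjusted p = 9.94e-05). Samhd1, a deoxynucleotide triphosphatase that restricts retroviruses, was a growing rise, 2.60-fold at 1 h and 7.15-fold at 3 h (change 1.46 ± 0.22, limma adjusted p = 0.00042), although another of its probe sets changed by 0.02. Ifit3 read 6.78, 6.77 and 6.81 with IFN-gamma at 3 h against 4.36, 4.35 and 4.24, and its change of 2.53 ± 0.60 passed with the block (limma adjusted p = 0.000508) and not without it (0.0535). Ifit1, named after its values were seen, had mock replicate 2 of 1 h at 7.27 against 4.19 to 4.40 on the other 3 and a change of 3.80 ± 1.31 (limma adjusted p = 0.514, or 0.00659 with the block).

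Among 12 cell death and nuclear body genes 5 rose in the time comparison, Fas, Xaf1, Phf11d, Sp100 and Mlkl (6 with the block, which adds Casp4), beside 0.787% and 2.21% of all probe sets, and none passed at 1 h in limma, where 2 did with the block and 2 had an unadjusted p under 0.05. Fas, a death receptor, went from 7.68, 7.80, 7.83 and 8.51 in treated cells at 1 h to 9.01, 8.96 and 8.76 at 3 h (mock 6.74 to 7.08 at 3 h), a change of 1.43 ± 0.30 (limma adjusted p = 0.0185), lost in a fit of the 14 arrays alone (0.0777) and when a 3 h array was left out (up to 0.0712 for mock replicates 1 and 3 and IFN-gamma replicates 1 and 2). Casp4, an inflammatory caspase, read 7.31 on all 3 treated arrays at 3 h and rose 3.06-fold there (limma adjusted p = 2.53e-05), and its change of 0.97 ± 0.27 passed with the block only (0.00555, against 0.169). Xaf1 (change 3.87 ± 0.86), Phf11d (2.63 ± 0.50) and Sp100 (1.73 ± 0.17), an organiser of nuclear bodies, were late rises, although another probe set of Sp100 changed by 0.06. Xaf1 and Sp100 also stand in the antiviral list. The Xaf1 call (limma adjusted p = 0.0294) was lost in a fit of the 14 arrays alone and with no filter (up to 0.158). It was also lost without any of 9 of the 14 arrays (up to 0.101), namely each array of 3 h, mock replicates 2 and 4 and IFN-gamma replicate 1 of 1 h. A second probe set of Xaf1, also a late rise, changed by 2.81 ± 0.34 (limma adjusted p = 2.99e-05).

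Of 15 chemokine and cytokine genes 3 rose in the time comparison, Cxcl10, Il15 and Cxcl1, and 8 with the block, beside 0.787% and 2.21% of all probe sets. Ccl2, a monocyte chemokine, read 11.53 on each of the 3 treated arrays at 3 h, against 9.26, 9.22 and 9.28 in mock cells. At 1 h it read 12.30, 10.37, 12.18 and 12.27 in treated and 12.02, 10.18, 11.71 and 11.82 in mock cells, replicate 2 being the lowest in both groups. Its change of 1.93 ± 0.73 passed with the block (limma adjusted p = 3.33e-08) and not without it (0.789). Ccl7, a related chemokine, had the same low replicate 2 (6.47 and 7.61) and a change of 1.63 ± 1.25 (limma adjusted p = 1, or 0.00472 with the block). Il15, a cytokine for natural killer cells, was named after its values were seen. Its treated arrays were below the mock arrays at 1 h (3.10 to 3.46 against 3.48 to 4.44, not called in limma, adjusted p = 1) and above them at 3 h (5.57 to 6.05 against 4.46 to 5.03), a change of 1.62 ± 0.33 (limma adjusted p = 0.015), lost without mock replicate 2 or IFN-gamma replicate 1 of 3 h (up to 0.0702).

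Rises that faded by 3 h were few. Map3k8, a kinase of the NF-kB and MAP kinase pathways, was the only named gene to pass as fading without the block. It read 6.41, 7.0, 7.02 and 6.23 in treated cells at 1 h and 4.53, 4.48 and 4.51 at 3 h. Mock arrays read 4.44, 4.77, 4.81 and 4.20 at 1 h and 3.51, 3.66 and 3.60 at 3 h, so mock values were lower at 3 h as well. The response changed by -1.2 ± 0.27 (log2 difference, limma adjusted p = 0.0343), from 4.32-fold at 1 h to at least 1.42-fold at 3 h. The call was lost in a fit of the 14 arrays alone, with median centring and with the control without 4sU (adjusted p up to 0.168). It was also lost without any of 10 of the 14 arrays (up to 0.114), namely each array of 3 h, mock replicates 1 and 4 and IFN-gamma replicates 2 and 3 of 1 h. Hoxd3os1, a non-coding transcript antisense to Hoxd3, read 8.47, 7.59, 7.87 and 8.12 at 1 h and 8.41, 8.27 and 8.58 at 3 h in treated cells, which overlap. Mock arrays rose between the times, from 4.37 to 5.19 at 1 h to 6.13 to 6.40 at 3 h. The change of the response, -1.14 ± 0.28, passed with the block (limma adjusted p = 0.016) and not without it (0.0637). The protein-coding neighbour Hoxd3 was a late rise (change 1.31 ± 0.26, limma adjusted p = 0.00844) from 3.43 to 4.09 at 1 h to 5.73, 5.76 and 5.21 in treated cells. The Hoxd3 call was lost in a fit of the 14 arrays alone (limma adjusted p = 0.0794).

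Pde4b, a phosphodiesterase that degrades cyclic AMP, came closest to a transient rise. Treated arrays read 9.54, 10.31, 9.33 and 9.65 against 7.96, 8.97, 7.90 and 8.03 in mock cells at 1 h, each treated array being above every mock array. At 3 h they read 8.57, 8.70 and 8.65 against 8.61, 8.89 and 8.47 and overlapped. The response went from 1.49 ± 0.26 to -0.01 ± 0.30, a change of -1.50 ± 0.39 (limma adjusted p = 0.1, or 5.59e-06 with the block). A second probe set changed by -1.64 and passed in both fits (limma adjusted p = 0.0164). Another probe set of Pde4b changed by -0.60 and passed in neither fit. Rnd1, a small GTPase, was raised 11.9-fold at 1 h and at least 3.42-fold at 3 h. Its change of -1.35 ± 0.83 passed with the block (limma adjusted p = 0.0379, against 1), as did that of the deubiquitinase Usp27x (-0.97 ± 0.32, 0.0036, against 0.43). Il6, a cytokine of inflammation, was raised 3.25-fold at 1 h (limma adjusted p = 0.000823) and 1.71-fold at 3 h (0.516, or 0.018 with the block, which places it among the early and kept rises), while mock values were 6.54 to 7.64 at 1 h and 4.52 to 5.38 at 3 h. Its change of -0.93 ± 0.39 did not pass in either fit (limma adjusted p = 1, or 0.0561 with the block). Besides Pde4b, the block placed Cebpd, Itpkc, Plekhf1, Dnajb4 and Pdpn in the transient class, all named after their values were seen. Cebpd, a transcription factor of the acute phase response, changed by -1.11 ± 0.73 and Itpkc, an inositol phosphate kinase, by -1.21 ± 0.68. Plekhf1 changed by -0.86 ± 0.56, Dnajb4, a heat shock protein co-chaperone, by -0.63 ± 0.42, and Pdpn, a membrane glycoprotein of fibroblasts, by -0.59 ± 0.27. None of these 5 passed without the block (limma adjusted p = 1 for each). Of the 4 probe sets that passed as transient without the block, 3 have no gene in the annotation, the largest with a response of 2.54 ± 0.18 at 1 h and 0.42 ± 0.21 at 3 h and the next with 2.04 ± 0.17 and 0.14 ± 0.19.

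**Figure D4:**
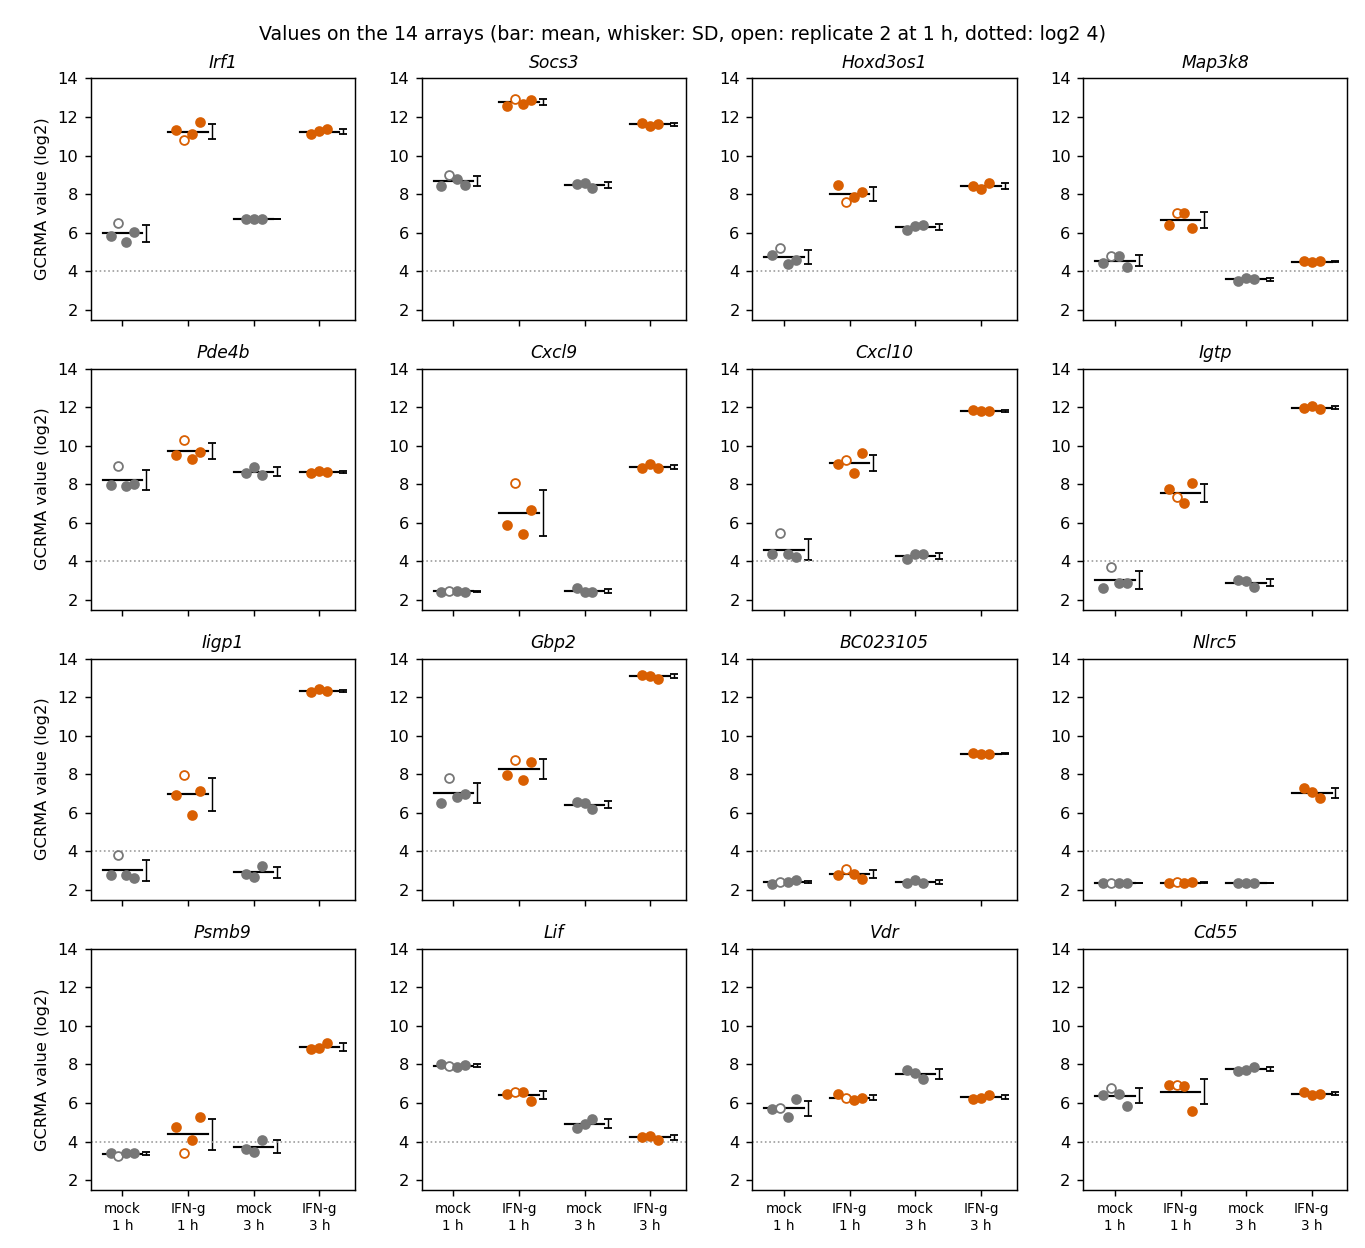
GCRMA values (log2) of 16 genes on the 14 arrays, mock cells in grey and IFN-gamma cells in orange; bars are means, whiskers SD, open symbols replicate 2 of the 1 h groups and the dotted line log2 4. Irf1 and Socs3 are high at 1 h, Iigp1 and Igtp rise at 1 h and further at 3 h, BC023105 and Nlrc5 leave background only at 3 h, and Pde4b is raised at 1 h alone.

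Falls were fewer and smaller than rises. Lif, a cytokine of the interleukin 6 family, was the only gene to pass as lower at both times without the block. Its arrays read 8.01, 7.93, 7.84 and 7.97 in mock and 6.44, 6.57, 6.56 and 6.12 in treated cells at 1 h, and 4.71, 4.92 and 5.16 against 4.26, 4.31 and 4.08 at 3 h. Mock values were thus lower at 3 h too. The difference from mock cells was -1.51 ± 0.15 at 1 h and -0.71 ± 0.17 at 3 h, and the change of 0.80 ± 0.22 passed with the block (limma adjusted p = 0.0459) and not without it (0.149). Dusp1, a phosphatase that inactivates MAP kinases, was lower by -1.58 ± 0.28 at 1 h (limma adjusted p = 0.00656), and its change of 0.80 ± 0.44 did not pass in either fit (adjusted p = 1, or 0.133 with the block). Dlx2, a homeobox factor, changed by 0.47 ± 0.29 (limma adjusted p = 1). Mycn, a MYC family factor, differed by -1.35 ± 0.25 at 1 h and -0.46 ± 0.28 at 3 h, and Ptger4, a prostaglandin receptor, by -0.84 ± 0.17 and -0.33 ± 0.20. The changes of Mycn (0.89 ± 0.38, adjusted p = 0.00154) and Ptger4 (0.50 ± 0.27, 0.034) passed with the limma block only. With the block 16 genes, Dusp1 and Dlx2 among them, were lower at both times with the time comparison not called. A further 3, Lif, Mycn and Ptger4, were lower at both times and less so at 3 h.

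Late falls were led by Vdr, the vitamin D receptor. In mock cells it read 5.68, 5.72, 5.28 and 6.19 at 1 h and 7.72, 7.58 and 7.24 at 3 h, while treated cells stood at 6.44, 6.24, 6.13 and 6.25 and then at 6.22, 6.28 and 6.43. The treated arrays hardly moved between the times and the mock arrays were higher at 3 h. The difference from mock cells went from 0.55 ± 0.21 to -1.20 ± 0.24, a change of -1.75 ± 0.31 (limma adjusted p = 0.00397). Kcnk10, a potassium channel, was also higher in mock cells at 3 h, with mock arrays from 2.53 to 2.67 at 1 h and from 4.84 to 5.12 at 3 h. Its mock arrays of 1 h lay below log2 4, so its 1 h difference was measured at background. The difference of treated from mock cells went from 0.07 at 1 h to -0.66 at 3 h (change -0.73 ± 0.16, limma adjusted p = 0.0276). This call was lost in a fit of the 14 arrays alone, with array weights, quantile normalization or median centring and without number 2 at 1 h (adjusted p up to 0.173). It was also lost without any of 7 of the 14 arrays (up to 0.14): mock replicate 4 and IFN-gamma replicates 1 and 3 of 1 h, and replicates 1 and 3 of both 3 h groups. Cd55, which protects cells from complement, read 7.68, 7.69 and 7.89 in mock and 6.55, 6.43 and 6.44 in treated cells at 3 h. Its change of -1.49 ± 0.41 passed with the block (limma adjusted p = 4.83e-05) and not without it (0.135), as did that of the zinc finger factor Glis1 (-1.39 ± 0.34, 0.000541 against 0.0673). Other probe sets of Cd55 changed by -0.90 and -0.64 and passed in neither fit. With the block 43 genes were late falls.

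The time classes were also described by their promoters. Of the 21 early and kept genes 18 had a window, of which 4 (22.2%) held a GAS match and none an ISRE match. Of the 9 growing rises 7 had one, with a GAS match in 3 (42.9%) and an ISRE match in 4 (57.1%). Of the 80 late rises 54 had one, with a GAS match in 9 (16.7%) and an ISRE match in 18 (33.3%), beside the 7.86% and 3.61% of all named genes. With the classes of the block fit, 11 of 41 early and kept genes (26.8%) held a GAS and 2 (4.88%) an ISRE match, and of 137 late rises 14 (10.2%) held a GAS and 25 (18.2%) an ISRE match. Of 40 growing rises of that fit 9 (22.5%) held a GAS and 9 (22.5%) an ISRE match. E-box matches (CACGTG), searched as a motif with no known link to interferon, were found in 5 of the 54 late rises (9.26%) and 12.3% of all named genes. Cish held 2 GAS matches at its start, Irgm2 a GAS and an ISRE match, and Cxcl10, Gbp3 and Stat2 ISRE matches, while in the windows of Cxcl9, Tap1, Psmb9, Cd274 and Ifi47 neither was found. These counts have no test.

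Whether the 2 interferons changed differently with time was tested directly, as the change of IFN-gamma cells between 1 h and 3 h against that of IFN-alpha cells, in which the mock groups cancel. The 2 IFN-alpha groups, at 100 U/ml with the same 4sU, had 4 arrays at 1 h and 3 at 3 h. Of 19305 probe sets 106 passed (0.549%), 42 with a higher (0.218%) and 64 with a lower (0.332%) change with IFN-gamma, or 429 (2.22%), 231 (1.2%) and 198 (1.03%) with the block. The changes of both responses against the shared mock arrays are drawn side by side in the plot of the 2 interferons.

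**Figure D5:**
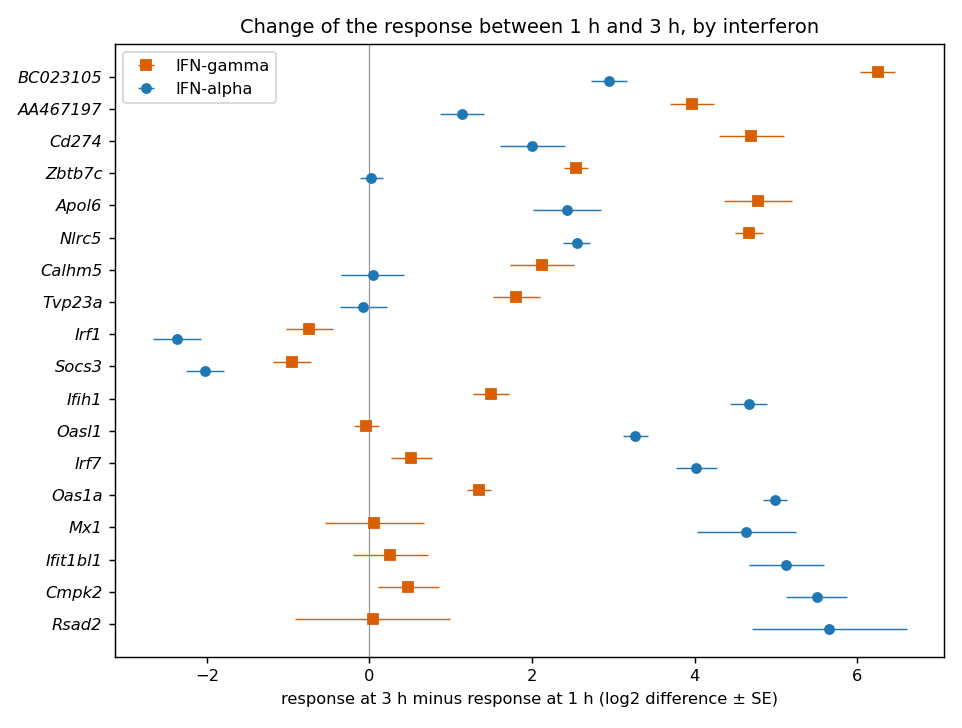
Response at 3 h minus response at 1 h (log2 difference with its standard error) for IFN-gamma (squares) and IFN-alpha (circles), for the leading genes of the direct comparison and for Irf1 and Socs3. Squares lie to the right of circles from BC023105 down to Socs3 and to the left from Ifih1 to Rsad2; both interferons are set against the same mock arrays.

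Of the called differences in favour of IFN-gamma the 8 named by size of the fitted value were all late rises, some of them from background. Those from background entered the test through the interferon arrays, and their calls are given as a description. BC023105 rose between the times to 9.09, 9.03 and 9.07 with IFN-gamma and to 5.62, 5.66 and 5.18 with IFN-alpha, a difference between the changes of 3.30 ± 0.22 (limma adjusted p = 3.32e-09). AA467197 (2.84 ± 0.27), Cd274 (2.69 ± 0.40), Apol6 (2.35 ± 0.42) and Nlrc5 (2.12 ± 0.17) followed. For Zbtb7c (2.52 ± 0.14), Calhm5 (2.08 ± 0.39) and Tvp23a (1.88 ± 0.29) the arrays of IFN-alpha at 3 h were at or near those of 1 h. Zbtb7c, a zinc finger factor, read 4.48, 4.65 and 4.53 with IFN-gamma and 2.12, 2.12 and 2.06 with IFN-alpha at 3 h. With no filter, the probe set of highest mean was chosen again among all of the gene's probe sets. The Zbtb7c value then did not pass, either here (limma adjusted p = 0.9999) or in the time comparison. It need not be that of the probe set given here, whose mean over the 24 arrays was 2.44. Irf1 and Socs3 also differed. With IFN-alpha the treated values of both fell between the times. With IFN-gamma the treated values of Irf1 overlapped between the times, and those of Socs3 fell less than with IFN-alpha. Irf1 read 9.34, 9.26, 9.19 and 9.45 with IFN-alpha at 1 h and 7.72, 7.63 and 7.69 at 3 h, a difference between the changes of 1.63 ± 0.29 (limma adjusted p = 0.006). Socs3 read 10.94, 11.02, 10.78 and 10.44 and then 8.84, 8.51 and 8.39 with IFN-alpha, a difference of 1.07 ± 0.23 (limma adjusted p = 0.034). The Socs3 call was lost with array weights, quantile normalization and median centring (adjusted p up to 0.268). It was also lost without IFN-gamma replicate 1 or 3 of 1 h, mock replicate 1 of 3 h or any IFN-gamma replicate of 3 h (up to 0.129).

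The 8 named the other way were mostly antiviral genes. Rsad2, which makes an inhibitor of viral replication, read 2.60, 2.54 and 2.53 with IFN-gamma at 3 h and 9.95, 10.11 and 10.05 with IFN-alpha (difference -5.61 ± 0.95, limma adjusted p = 0.00305). Cmpk2 (-5.02 ± 0.38), Ifit1bl1 (-4.87 ± 0.46) and Mx1 (-4.57 ± 0.60), a GTPase against influenza virus, were likewise below log2 4 on every IFN-gamma array. Rsad2 and these genes thus entered the test through arrays without IFN-gamma, and their calls are given as a description. Oas1a read 5.90, 5.90 and 5.78 with IFN-gamma and 9.63, 9.47 and 9.41 with IFN-alpha at 3 h (-3.65 ± 0.15). Irf7, the factor that amplifies type I interferon production, read 2.78, 2.95 and 3.08 against 6.64, 6.89 and 6.65 (-3.50 ± 0.25, limma adjusted p = 1.61e-08). Oasl1 (-3.31 ± 0.15) and the RNA sensor Ifih1 (-3.16 ± 0.22) completed the 8. The mean over the 24 arrays was below log2 4 for Irf7 (3.11) and Oasl1 (2.97), and neither was called with IFN-gamma at 1 h or 3 h. Their calls are thus given as a description as well.

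Housekeeping and fibroblast genes gave no call in the time comparison. Of 8 housekeeping and 10 fibroblast genes measured none passed at 1 h, at 3 h or in the time comparison in limma, none had an unadjusted p under 0.05, and none passed in the time comparison with the block. With the block 1 fibroblast gene, Pdgfrb, was lower at 3 h (-0.54, adjusted p = 0.00972). The time comparison had medians of the change of -0.03 in both lists and of -0.0045 over all named genes. Of 32 serum immediate early genes none passed in the time comparison on its chosen probe set (1, Jun, with the block, and 2 at an unadjusted p under 0.05), while a second probe set of Jun rose without the block too (1.15 ± 0.23, limma adjusted p = 0.0112), although Dusp1 passed as lower at 1 h. Of 9 immediate IFN-gamma targets 4 rose in the time comparison (Gbp2, Cd274, Nlrc5 and Cxcl10), beside 0.787% of all probe sets, and with the block Cxcl9 was added and Socs3 fell. Only 4 of the 9 were above log2 4 on 3 or more mock arrays, so the others entered through the interferon arrays. Of 6 interferon regulatory factors none passed (1, Irf9, with the block, and 3 at an unadjusted p under 0.05). Usp18 was the only call among 16 signalling inhibitors, with Socs3 lower under the block. Cxcl1 rose and Map3k8 fell among 17 NF-kB targets, where the block added Ccl2 and Nfkbiz. Hoxd3 was the call among 17 developmental regulators, where the block gave 4 higher and 1 lower. The 1 measured MHC class II gene passed in neither fit. Cd14, the 1 leukocyte marker above background, did not pass without the block (-0.71 ± 0.42, limma adjusted p = 1) and passed as lower with it (0.0387).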

How the data were processed

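Total cellular RNA was measured on 24 one-colour Affymetrix arrays in 7 groups. The deposited values are log2 signals that the authors made with GCRMA, per the submitters' processing notes. Its version and a shared run of all arrays are not given in the sources used here. No further normalization was applied. Of 45101 probe sets 64 controls were left out and 19305 were kept (above log2 4 on at least 3 arrays), 16890 of them with 1 gene symbol in GEO's platform annotation, 521 with several and 1894 with none. Each gene is given by 1 probe set, the single-symbol one of highest mean level. Where the lower group's mean was below log2 4, its arrays below 4 were raised to 4 and the fold is written "at least". The number of arrays limits the precision.

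All 24 arrays entered 1 limma fit (version 3.58.1 in R 4.3.3, moderated by eBayes) with a mean per group, and p-values were two-sided and adjusted over the 19305. The script was tested on simulated data. Deviations from group means of same-numbered mock and IFN-gamma arrays correlated at 0.702 to 0.914 at 1 h and 0.128 to 0.587 at 3 h. Those of arrays with different numbers correlated at -0.74 to 0.42 at 1 h and -0.54 to 0.382 at 3 h. The numbers thus pair the arrays at 1 h, while at 3 h the ranges overlap and a pairing is not clear. Block values (21 arrays with 4sU) are given where they change a call. No 2 arrays held identical values.

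Members, 19 gene lists and tests were chosen with earlier results of these data known. Named by rule were the 15 largest called changes in each direction, the 8 largest of each class, up to 4 of each list, the 8 largest each way against IFN-alpha, and a fixed set, of which Irf8, Gbp4, Psmb8, Ciita and Icam1, among others, are not analysed here. Promoters were matched by symbol (7724 of 9421 genes, pandas 2.3.3). Alternatives are in the closing section.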

Additional observations from a re-analysis of the deposited data

Results flagged for a closer look

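The change of the IFN-gamma response between the times passed for 160 probe sets, and the difference between the changes with IFN-gamma and IFN-alpha for 106. Both were tested as differences in limma.

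In groups of 4 arrays, some genes named in the text had an array far from the other 3, which chance gives in about 1 in 20 groups. Most were replicate 2 of the 1 h groups, the arrays with the low 5′ actin signal. In mock cells this array was the highest for Cxcl10 (5.45), Pde4b (8.97), Iigp1 (3.83), Gbp7 (4.39), Oasl2 (2.87), Ifit1 (7.27), Phf11d (4.27), Rsad2 (2.78) and Cmpk2 (2.95). It was the lowest for Psmb9 (3.24), Psmb10 (4.22), Ccl2 (10.18) and Itpkc (2.71). In IFN-gamma cells replicate 2 was the highest for Gm4951 (3.84) and the lowest for Psmb10 (3.52), Ccl2 (10.37) and Ccl7 (7.61). The part of the actin difference in these values was not tested. Of the remaining arrays, mock replicate 3 stood apart for Cd274 (2.42) and Tvp23a (4.61), mock replicate 4 for Dusp1 (9.95) and Zbtb7c (2.32), IFN-gamma replicate 1 for Oasl2 (2.48) and IFN-gamma replicate 4 for Cd55 (5.6). Values below log2 4 are at background.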

How the results depend on the processing

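Of the 77 genes whose time change is given, 40 passed. All 40 kept their sign under every alternative run, and 30 passed under each. With another filter or none, the probe set of each gene was chosen again, so a value there can be that of another probe set. Of 18 genes in the comparison with IFN-alpha all kept their sign and 16 passed under each. With mock cells without 4sU as the 1 h control, Cblb (0.47) and Pdpn (0.011), called in neither setting, changed sign.

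The replicate block gave 427 higher and 100 lower probe sets in the time comparison, 428 at 1 h, 1029 at 3 h, and 231 higher and 198 lower against IFN-alpha. Its classes held 183 late, 48 growing, 44 early and kept, 12 fading or transient rises and 71 falls, counting 1 gene each that changed side by 3 h. Block fits added after seeing the data gave, over all 24 arrays and without number 2 at 1 h respectively, 300 and 422 higher, 38 and 84 lower, 206 and 317 at 1 h, 657 and 1141 at 3 h, 114 and 214 higher and 105 and 165 lower against IFN-alpha, 143 and 199 late, 25 and 36 growing, 37 and 47 early and kept, 4 and 11 fading or transient rises, and 24 and 54 falls.

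The count of probe sets lower at 3 h, 8 as reported, was 5 with only the 14 arrays, 13 with array weights, 22 with values below log2 4 set to 4, 4 with the filter at log2 6 and 15 without number 2 at 1 h. At 1 h array weights gave 57 and the control without 4sU 180, and at 3 h array weights gave 1291. Against IFN-alpha the floor at log2 4 gave 75 higher and the filter at log2 6 gave 41 lower. Fading or transient rises, 1 as reported, numbered 0 with the 14 arrays, with median centring and at adjusted p under 0.01, 2 with array weights or a mean-variance trend, 4 with the floor and 5 without number 2. At adjusted p under 0.01 there were 12 early and kept rises and 1 fall. A minimum change of log2 1 gave 1 fall, array weights 8, the floor 10 and the control without 4sU 7.

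Leaving out each array gave 121 to 158 higher and 5 to 13 lower probe sets, 76 to 99 at 1 h, 297 to 413 at 3 h, 30 to 48 higher and 50 to 65 lower against IFN-alpha, 67 to 85 late, 8 to 10 growing, 17 to 23 early and kept, 0 to 4 fading or transient rises and 1 to 4 falls. Genes not called as reported passed without a 1 h array as follows: Cxcl9, Glis1, Ifit1 and Hoxd3os1 without IFN-gamma replicate 2, Hoxd3os1, Socs3 and Pde4b without mock replicate 2, Cd55, Ifit3, Tap1 and Tapbp without IFN-gamma replicate 4, and Fst without mock replicate 1 (adjusted p between 0.00264 and 0.036). The cause of these shifts was not tested.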
